A study of Mus musculus with 3 samples.

Results

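The genes described here are 10 of the 21938 protein-coding genes of the mouse annotation, chosen by name as genes of the oncostatin M receptor and of JAK-STAT signalling. They are the receptor chains Osmr, Lifr and Il6st, the Janus kinases Jak1, Jak2 and Jak3, the transcription factors Stat3, Stat5a and Stat5b, and the feedback inhibitor Socs3. In each library, peaks of open chromatin were located and counted from 20 kb before the start of the gene to its end (GRCm38), both at the promoter and within introns. Hair follicle stem cells (HFSCs) were sorted as CD34+ CD49f+ Sca-1- cells from the dorsal skin of untreated 6-month-old mice whose follicles were at rest (telogen). Omni-ATAC-seq was applied to them, an assay that tags accessible DNA with the transposase Tn5. There was 1 library from Msx2-WT mice, which were hair cycle-matched C57BL/6J animals, and there were 2 libraries from homozygous Msx2-KO mice, which carry a neo cassette upstream of exon 2 of Msx2 in every cell of the body. The study asked how chromatin accessibility in HFSCs changes when the homeobox factor MSX2 is lost.

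Cytokines of the interleukin-6 family bind receptor pairs that share the chain gp130, the product of Il6st. Oncostatin M signals through OSMR with gp130 or through LIFR with gp130. The paired chains bring bound Janus kinases together, the kinases phosphorylate STAT proteins, and STAT dimers enter the nucleus and bind DNA at TTCNNNGAA sites. SOCS3 is induced by STAT3 and shuts the signal off by binding the kinases and gp130. In the hair follicle, JAK-STAT signalling is known for keeping stem cells quiescent in telogen, and inhibitors of the Janus kinases promote entry into the growth phase.

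The libraries differed in depth and carry only a limited check of their labels. The commonest background was 1.74 tags in Msx2-WT and 0.476 and 0.790 tags in replicates 1 and 2 of Msx2-KO, so that a summit needed at least 9, 5 and 6 tags, respectively, to pass −log10 q above 2.0. Relative to background, the lowest level past this threshold was 5.18 in Msx2-WT and 10.5 and 7.59 in the Msx2-KO replicates. The Msx2 promoter was open in all 3 libraries, and since the knockout leaves it in place this does not check the genotype. Of 10 HFSC marker genes, 8, 7 and 9 had an open promoter in the 3 libraries, and of 8 leukocyte markers none did. Of all protein-coding genes, 47.0% had an open promoter in Msx2-WT and 37.8% and 53.5% in Msx2-KO replicates 1 and 2. The counts were 2, 2 and 2 of 4 melanocyte markers, 2, 1 and 3 of 5 fibroblast markers and 0, 1 and 2 of 4 endothelial markers. Of the 31 markers, 3 were open in both Msx2-KO libraries but not in Msx2-WT, a state found in 2.31% of all genes. The HFSC marker Lgr5 stood at 12.6 and 24.0 times background against 4.03 below the threshold. The endothelial marker Tek stood at 25.2 and 16.5 against 4.03, and the fibroblast marker Col1a2 at 18.9 and 20.2 against 3.45. The endothelial marker Kdr was open in Msx2-KO replicate 2 alone. The part of cells other than HFSCs in the values below was not tested. By the labels the Msx2-WT library and the Msx2-KO libraries belong to different batches, and a difference of genotype and one of batch cannot be told apart. Both Msx2-KO lists name their peaks cKO, where the sample labels say KO, and the names in the list of Msx2-KO replicate 1 carry the number of a library other than the one in its label. With 1 Msx2-WT library no test between the genotypes was possible, and nothing in the labels says whether the 2 Msx2-KO libraries came from different animals.

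A few sequences at the open regions, or just beside one in the case of Jak3, go with the values that follow. They were read from the GRCm38 reference (RefSeq assembly GRCm38.p6), and capitals mark a match to the STAT motif TTCNNNGAA or the AP-1 motif TGANTCA. The 2 STAT matches within 1500 bases of the start of the protein-coding Socs3 transcript are given with 10 bases on each side, on the minus strand. These matches lie 330 and 57 bases before that transcript start. They are shown because Socs3 is a textbook STAT3 target and its summits fell between them.
Socs3 site 1, chr11:117969502-117969530: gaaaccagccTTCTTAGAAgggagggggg
Socs3 site 2, chr11:117969229-117969257: ggccgggcagTTCCAGGAAtcggggggcg
The next sequences are the 200 bases that lead up to the annotated start of Jak3, whose promoter was open in the Msx2-KO libraries only and whose summits lay after that start, outside the stretch, and 200 bases around the summit of the Osmr intron 2 region, the only region outside a promoter that was open in all 3 libraries (minus strand). Neither holds a match to these motifs or to the MSX motif TAATTG.
Jak3 before the start, chr8:71676096-71676295: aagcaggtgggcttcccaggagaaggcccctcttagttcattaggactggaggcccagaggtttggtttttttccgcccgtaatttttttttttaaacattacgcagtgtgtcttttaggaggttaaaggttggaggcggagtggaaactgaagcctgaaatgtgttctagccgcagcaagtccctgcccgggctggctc
Osmr intron 2, chr15:6859879-6860078: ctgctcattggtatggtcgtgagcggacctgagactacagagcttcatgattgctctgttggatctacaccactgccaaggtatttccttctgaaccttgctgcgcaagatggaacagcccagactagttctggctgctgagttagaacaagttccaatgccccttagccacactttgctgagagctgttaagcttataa
A pair of Lifr regions, both on the plus strand and both called in Msx2-WT as well as Msx2-KO replicate 2, carry a STAT and an AP-1 match. The upstream region lies in intergenic sequence of the protein-coding annotation. The other, labelled intron, lies inside the gene before its first protein-coding transcript, so it has no intron number.
Lifr upstream, chr15:7075272-7075471: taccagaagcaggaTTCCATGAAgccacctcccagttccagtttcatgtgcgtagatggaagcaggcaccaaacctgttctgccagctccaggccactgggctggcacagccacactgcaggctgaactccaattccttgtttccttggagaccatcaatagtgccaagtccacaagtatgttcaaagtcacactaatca
Lifr intron, chr15:7104945-7105144: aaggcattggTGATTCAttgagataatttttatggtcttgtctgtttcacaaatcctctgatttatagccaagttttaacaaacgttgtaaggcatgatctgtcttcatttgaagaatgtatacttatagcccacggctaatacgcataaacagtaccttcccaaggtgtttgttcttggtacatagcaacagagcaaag
The last is the tallest peak outside a promoter in Msx2-WT, over the end of Jak2 exon 19 and the intron that follows it (plus strand).
Jak2 gene body, chr19:29301032-29301231: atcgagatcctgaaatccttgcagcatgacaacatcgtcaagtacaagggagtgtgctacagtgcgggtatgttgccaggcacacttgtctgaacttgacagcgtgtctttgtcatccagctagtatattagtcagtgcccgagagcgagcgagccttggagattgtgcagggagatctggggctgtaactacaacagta

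Nearly all promoters of the pathway core were open, in every library. A promoter was called open when a summit past the threshold lay within 1500 bases of the start of a protein-coding transcript. Of the 10 genes, 9 had an open promoter in Msx2-WT and 9 in each Msx2-KO replicate, where 47.0%, 37.8% and 53.5% of all protein-coding genes did in Msx2-WT and in the Msx2-KO replicates 1 and 2. 8 genes were open in all 3 libraries, beside 35.1% of all genes. The exceptions were Jak3, open in both replicates of Msx2-KO but closed in Msx2-WT, a state found in 2.31% of all genes, and Stat5b, open in Msx2-WT alone, a state found in 2.11%. None of the 10 was closed in Msx2-KO replicate 1 alone, as were 9.6% of all genes.

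**Figure D1:**
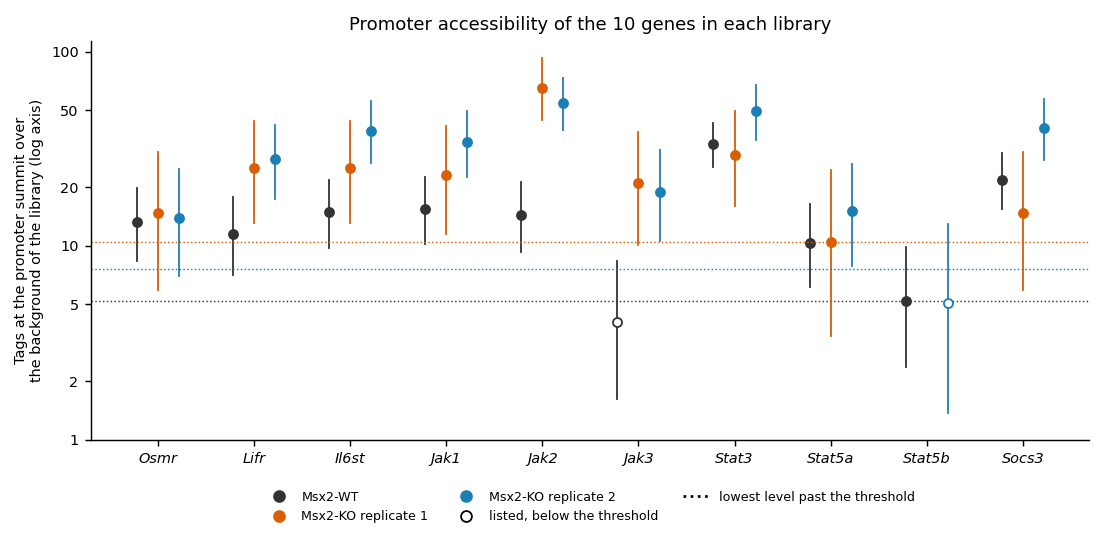
Tags at the highest promoter summit over the background of the library, on a log axis, for each of the 10 genes in the 3 libraries, with bars for the 95% Poisson interval, open circles for summits listed below the threshold and dotted lines for the lowest level past it in each library. Jak2 stands at 65.1 and 54.4 in the Msx2-KO libraries against 14.4 in Msx2-WT, while Osmr lies between 13.2 and 14.7 in all 3.

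The height of a promoter was read as the number of tags at its highest summit divided by the background of the library, with an interval that covers counting error only. On this scale the promoters open in all 3 libraries were generally higher in the Msx2-KO libraries. Over all 7701 such promoters the median ratio to Msx2-WT was 1.83 for the first Msx2-KO replicate and 2.29 for the second. By the fold over the local background, as deposited, these medians were 0.894 and 1.09, so that the first lay on the other side of 1. The 8 shared promoters of the pathway had medians of 1.30 and 2.03, both below those of all promoters. A ratio of at least 2 in both Msx2-KO libraries was reached by 2 of the 8, Lifr and Jak2, where 39.8% of all shared promoters reached it. None of the 8 was at most 1/2 of Msx2-WT in both, as were 0.026% of all shared promoters. When each ratio was divided by the median of all promoters, 0 of the 8 were at least 2 in both (2.66% of all) and 0 at most 1/2 in both (3.12% of all).

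**Figure D2:**
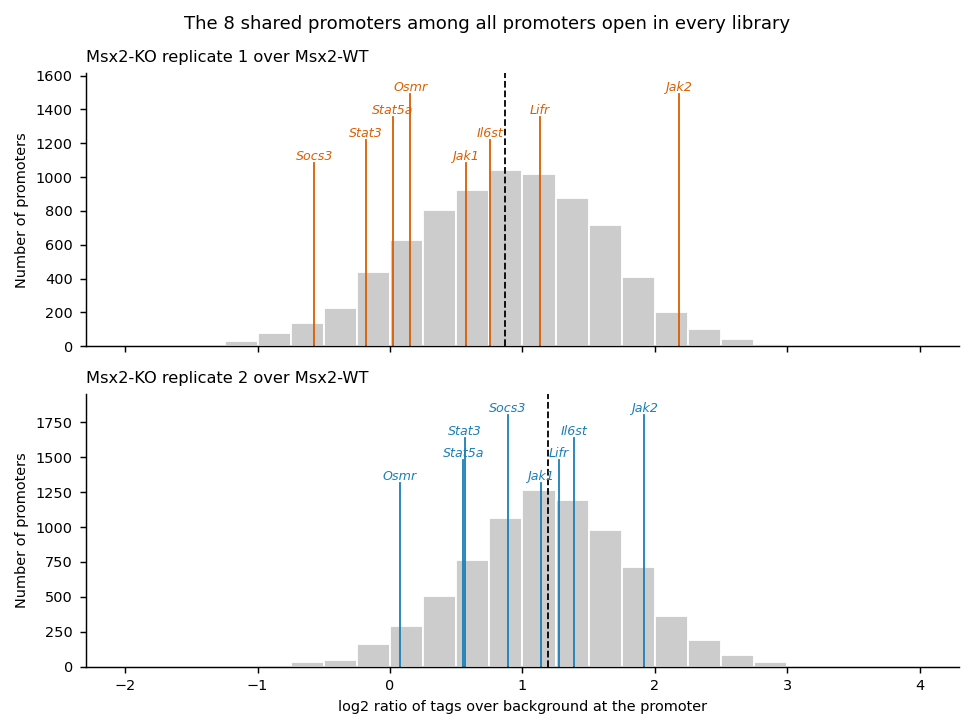
Number of promoters by the log2 ratio of tags over background, Msx2-KO over Msx2-WT, in bins of 0.25 for all 7701 promoters open in every library, with the 8 shared pathway promoters as coloured lines and the median of all promoters as a dashed line. Jak2 lies in the right flank of both panels, at percentiles 97.4 and 88.7, and Osmr in the left flank, at percentiles 16.7 and 4.23.

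The receptor chains were open at their promoters in every library. Osmr encodes a signalling chain for oncostatin M that also serves interleukin-31. Its promoter summit held 23 tags in Msx2-WT and 7 and 11 in the Msx2-KO replicates, or 13.2, 14.7 and 13.9 times background. On this scale the levels were nearly equal, and the ratios to Msx2-WT of 1.11 (95% interval 0.403 to 2.68) and 1.05 (0.463 to 2.25) lay in the lower part of all shared promoters. Set against the median of all promoters the ratios were 0.609 and 0.459, and by the deposited fold they were 0.641 and 0.742. The −log10 q was 10.4 in Msx2-WT and 2.15 and 4.18 in the Msx2-KO replicates, the first of them just past the threshold.

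Lifr, the receptor for leukaemia inhibitory factor, was open at the start of its protein-coding transcripts, which lies 38945 bases inside the outermost annotated start of the gene. The summit held 20, 12 and 22 tags in Msx2-WT, Msx2-KO replicate 1 and Msx2-KO replicate 2, or 11.5, 25.2 and 27.8 times background. Both Msx2-KO libraries were higher than Msx2-WT, by ratios of 2.19 (0.977 to 4.71) and 2.42 (1.26 to 4.67). Set against the median of all promoters these ratios were 1.20 and 1.06, so the Lifr promoter moved about as far as promoters in general.

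Il6st, which encodes gp130, had a single open region in each library, and it was the promoter. Its summits lay within 38 bases before the annotated start and held 26, 12 and 31 tags, or 15.0, 25.2 and 39.2 times background. The ratios to Msx2-WT were 1.69 (0.775 to 3.46) and 2.62 (1.51 to 4.60), on either side of the medians of all promoters. Of the 3 receptor chains, Osmr and Lifr held several regions outside the promoter and Il6st none past the threshold.

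Among the kinases, Jak2 had the largest promoter ratios of the 8 shared promoters. Jak1 and Jak2 bind the gp130 family of receptors, and Jak1 is also needed by interferon receptors. The Jak1 promoter held 27, 11 and 27 tags in the 3 libraries, or 15.5, 23.1 and 34.2 times background, with ratios of 1.49 (0.666 to 3.10) and 2.20 (1.24 to 3.90).

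The Jak2 promoter held 25 tags in Msx2-WT, and in Msx2-KO 31 in replicate 1 and 43 in replicate 2. It was the only shared promoter with more tags in both Msx2-KO libraries than in Msx2-WT, the deepest library, and over background it reached 14.4, 65.1 and 54.4. The ratios were 4.53 (2.59 to 8.00) and 3.78 (2.26 to 6.46), and the interval of the first lay above the median of all promoters while that of the second included it. Set against those medians the ratios fell to 2.48 and 1.65, and by the fold over the local background, as deposited, they were 1.51 and 1.27. The 2 Msx2-KO libraries did not differ from each other beyond counting error, with a ratio of 1.20 (0.729 to 1.94).

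Jak3, which pairs with the common gamma chain of the interleukin-2 receptor family and is best known from lymphocytes, was the only one of the 10 genes with no peak past the threshold anywhere in its window in Msx2-WT. Its promoter held 7 tags in Msx2-WT, at −log10 q of 1.00, and 10 and 15 tags in the Msx2-KO libraries, at −log10 q of 3.48 and 5.57. Over background these are 4.03, 21.0 and 19.0, and the summits lay 39, 125 and 71 bases after the start. The ratios to Msx2-WT were 5.22 (1.79 to 16.1) and 4.71 (1.81 to 13.7). They use the same counts that set the call, so they restate it and lend it no further weight. Set against the median of the 7701 promoters open in all 3 libraries, to which Jak3 does not belong, the ratios were 2.86 and 2.06. By the deposited fold over the local background they were 1.51 and 1.59. The state of this promoter depended on the threshold. It was open in all 3 libraries when every deposited peak was kept, in replicate 2 of Msx2-KO alone at −log10 q of at least 5, and only in replicate 1 when the 3 lists were cut to equal length. Promoters of leukocyte marker genes were open in 0 of 8 cases in each library, and the promoter of the common gamma chain gene Il2rg was open in none. The promoters of Tek, Col1a2 and the HFSC marker Lgr5 had the same state as Jak3. Whether other cell types contribute to the Jak3 peak was not tested.

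In Msx2-WT the STAT genes held both the tallest and the lowest open promoter of the set. Stat3, the factor that oncostatin M and interleukin-6 chiefly activate, had the tallest promoter of the 10 in Msx2-WT, with 58 tags, and held 14 and 39 tags in the Msx2-KO libraries. Over background it reached 33.4, 29.4 and 49.4, which placed it at percentiles 92.9, 53.4 and 79.6 among the open promoters of each library. The ratios were 0.881 (0.454 to 1.60) and 1.48 (0.960 to 2.26), and both intervals included 1. Both also lay below the medians of all promoters, 1.83 and 2.29. Set against those medians the Stat3 ratios were 0.483 and 0.646, and by the deposited fold they were 0.702 and 0.951.

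Stat5a and Stat5b encode closely related factors that growth hormone, prolactin and many cytokines activate, and they start head to head on chromosome 11. The Stat5a promoter held 18, 5 and 12 tags, or 10.4, 10.5 and 15.2 times background, near a start 1133 bases inside the outermost one. In Msx2-KO replicate 1 this was the lowest number of tags that can pass. A second summit in the Stat5a promoter window, at −1071 bases from the outermost start, held 13 tags in Msx2-WT and was listed in neither Msx2-KO library. Stat5b held 9 tags in Msx2-WT, likewise the lowest number that can pass, 4 tags below the threshold in Msx2-KO replicate 2, and no listed peak in Msx2-KO replicate 1. The levels over background were 5.18 in Msx2-WT and 5.06 in Msx2-KO replicate 2, so the call differed between levels that were nearly equal on this scale. At −log10 q of at least 5 the Stat5b promoter was open in no library.

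Among the 8 shared promoters, that of Socs3 differed most between the 2 Msx2-KO libraries. Its promoter held 38 tags in Msx2-WT but 7 and 32 in the Msx2-KO replicates, or 21.9, 14.7 and 40.5 times background. Msx2-KO replicate 1 was the lowest of the 3 libraries and Msx2-KO replicate 2 the highest, with ratios to Msx2-WT of 0.673 (0.253 to 1.52) and 1.85 (1.12 to 3.04). The ratio between the Msx2-KO libraries was 0.363 (0.135 to 0.838), and Socs3 was the only 1 of the 8 shared promoters at which this interval excluded 1. The interval does not allow for the general difference between these libraries, whose medians over all promoters were 1.83 and 2.29. Set against those medians the Socs3 ratios to Msx2-WT were 0.368 and 0.808. The summits lay at −177, −99 and −268 bases from the start of the protein-coding transcript, between the STAT matches printed above.

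The windows of the 10 genes held 22 distinct peaks in Msx2-WT, and 12 and 24 in Msx2-KO replicates 1 and 2. Counted per gene window, this is 3.30, 1.72 and 3.30 peaks per 100 kb, against 1.98, 1.22 and 2.25 over the windows of all protein-coding genes. Of the peaks, 10, 9 and 9 were at promoters, 9, 2 and 10 in introns, 2, 1 and 4 upstream, and 1, 0 and 1 in exons. Any other summit inside a gene and outside its protein-coding exons counted as in an intron. This includes Lifr peaks before its first protein-coding transcript. By gene, Osmr had 4, 2 and 4 peaks in the 3 libraries, Lifr 4, 1 and 5, and Jak1 4, 1 and 4, while Il6st had 1, 1 and 1.

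**Figure D3:**
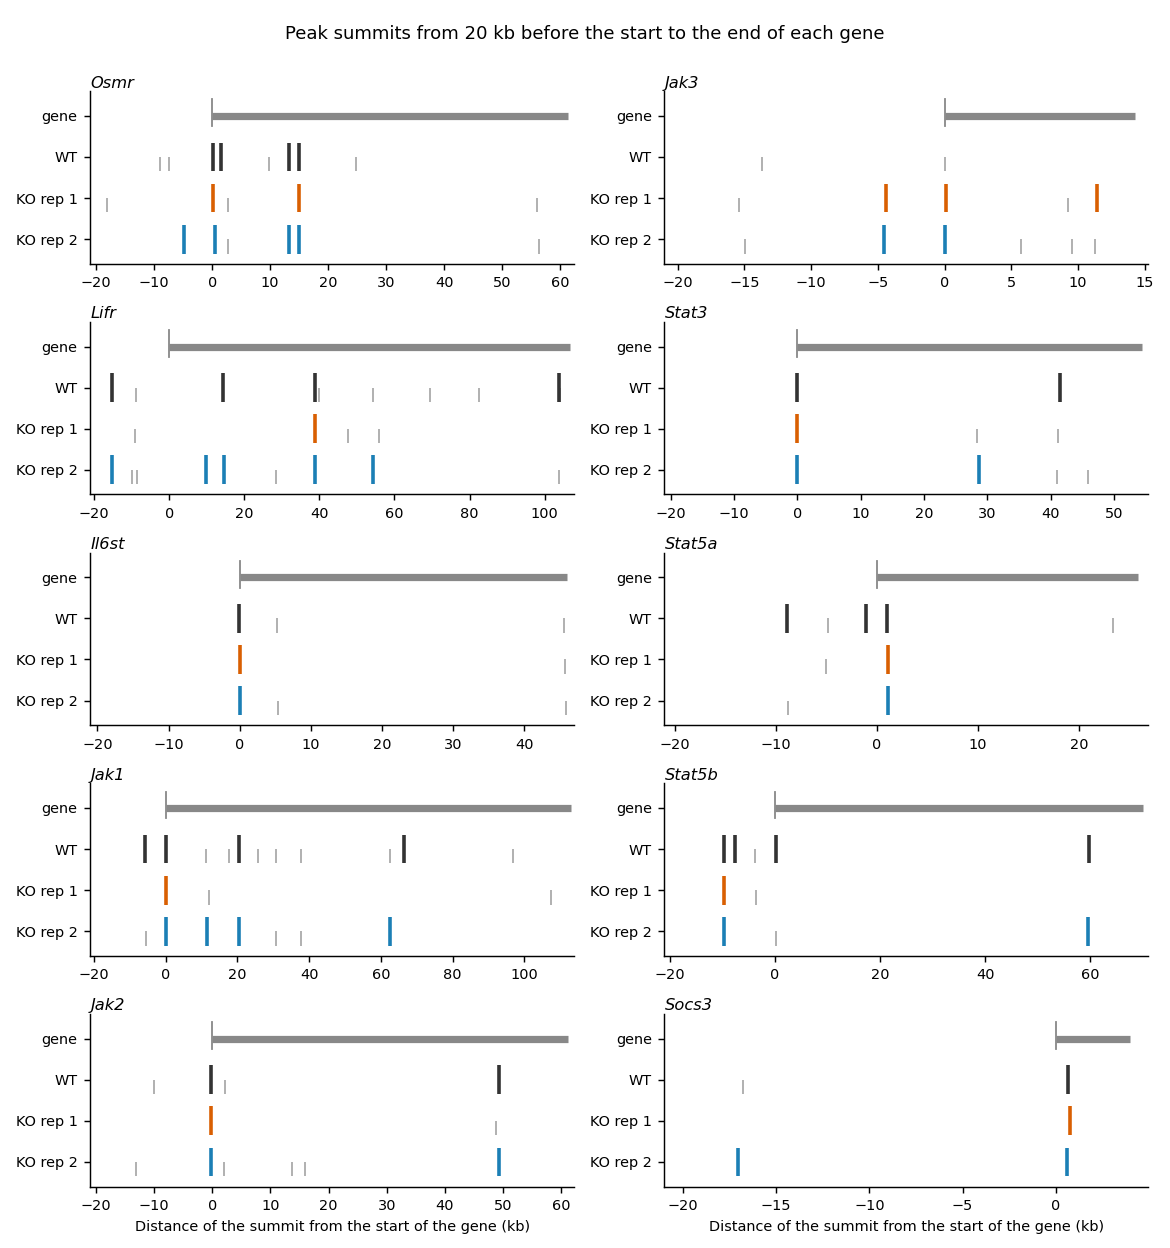
Position of each peak summit, in kb from the outermost start of the gene, from 20 kb before it to the gene end (grey bar) for the 10 genes, with tall coloured ticks for peaks past the threshold in each library and short grey ticks for peaks listed below it. The promoter column is filled in all 3 libraries at 8 genes (for Lifr inside the gene body), whereas Msx2-KO replicate 1 has few ticks elsewhere.

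Peaks that overlapped between libraries were merged into 31 regions. Of these, 9 were open in all 3 libraries, beside 32.0% of the regions in the windows of all genes. Another 6 were shared by Msx2-WT with Msx2-KO replicate 2 (15.5% of all), and 0 in Msx2-WT with Msx2-KO replicate 1 (0.678%). Both Msx2-KO libraries but not Msx2-WT held 2 (6.69%). Of the regions seen once, 6 were in Msx2-WT (17.6%), 1 was in replicate 1 of Msx2-KO (2.15%) and 7 were in replicate 2 (25.3%). As shares of 31 these counts lie near those over all genes. At the 9 regions open in all 3 libraries, the summits of the libraries lay 23 to 365 bases apart, with a median of 80.

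Outside the promoters 1 of 20 regions was open in all 3 libraries, and it lay at Osmr, in intron 2 at 14990 bases from the start (chr15:6858968-6860328). It held 13, 8 and 21 tags, or 7.48, 16.8 and 26.6 times background. The ratios to Msx2-WT were 2.25 (0.807 to 5.85) and 3.55 (1.70 to 7.72), and the interval of the second lay above 1 but included 2.29, the median of all promoters in that library. By the deposited fold the ratios were 0.875 and 1.31. A neighbouring region in intron 1 at 13192 bases held 9 tags in Msx2-WT and 15 in Msx2-KO replicate 2 and was not listed in Msx2-KO replicate 1. A further Msx2-WT peak in intron 1, at 1556 bases with 13 tags, overlapped the promoter peak of Msx2-KO replicate 2. It was therefore merged into the promoter region. A peak at −4801 bases was found in Msx2-KO replicate 2 alone, with 8 tags.

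At Lifr, the region at −15192 bases held 17 tags in Msx2-WT and 9 in Msx2-KO replicate 2, and the region at 14481 bases held 9 and 12. Neither was listed in Msx2-KO replicate 1. A peak of 15 tags in the last exon, 103738 bases from the start, passed in Msx2-WT alone, and Msx2-KO replicate 2 listed 5 tags there below the threshold. The remaining Lifr peaks, at 9793 and 54304 bases, were found in Msx2-KO replicate 2 alone with 8 and 6 tags.

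Jak1 had its regions in intron 1 and upstream. The region at 20421 bases held 13 tags in Msx2-WT and 7 in Msx2-KO replicate 2. Peaks at 66436 bases and at −5612 bases, with 9 and 10 tags, passed in Msx2-WT alone, and peaks at 62458 and 11575 bases, with 6 and 8 tags, in Msx2-KO replicate 2 alone. Apart from the 13 tags in Msx2-WT, at −log10 q of 4.92, these were low peaks near the threshold of their library. They came from Msx2-WT and Msx2-KO replicate 2, while Msx2-KO replicate 1 had no Jak1 peak past the threshold outside the promoter.

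The Jak2 region at exon 19 was the tallest peak outside a promoter in Msx2-WT, with 33 tags or 19.0 times background. Its Msx2-WT summit lay 34 bases after the end of the exon, and that of Msx2-KO replicate 2, with 21 tags or 26.6 times background, lay in the exon. Msx2-KO replicate 1 listed 5 tags below the threshold in an overlapping peak. The Msx2-WT peak was only 228 bases wide, with reads extended to 200 bases and duplicate reads kept by the authors. Of the 4238 Msx2-WT peaks with at least as many tags, 0.637% were as narrow, against a median width of 721 bases. The Msx2-KO replicate 2 peak was 760 bases wide, and of 9233 peaks there with at least as many tags 14.8% were as narrow, with a median of 1101 bases. Whether duplicate reads contribute to this peak was not tested.

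Both regions called in the Msx2-KO libraries only were at Jak3, at the promoter and at −4525 bases. The upstream region held 12 and 21 tags in the Msx2-KO libraries, or 25.2 and 26.6 times background, and was not listed in Msx2-WT. It lies within 1500 bases of a start of the neighbouring gene Unc13a, so it cannot be assigned to Jak3. A further peak of 6 tags in intron 23, in Msx2-KO replicate 1 alone, lies likewise within the promoter window of Insl3.

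At the STAT genes and Socs3 the regions outside promoters were single-library peaks, with an exception in Stat5b. Its intron 12 region, 59491 bases from the start, held 9 tags in Msx2-WT and 9 in Msx2-KO replicate 2. Stat3 had a peak of 14 tags in intron 14 in Msx2-WT alone and one of 8 tags in intron 2 in Msx2-KO replicate 2 alone. The peak at −17030 bases from Socs3, with 8 tags in Msx2-KO replicate 2 alone, lies in the promoter window of Pgs1.

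The lowest level past the threshold was higher in both Msx2-KO libraries than in Msx2-WT, so the Msx2-WT levels were set against it. Of the 6 regions shared by Msx2-WT and Msx2-KO replicate 2, 1, at Jak2 exon 19, stood in Msx2-WT at or above the lowest level of Msx2-KO replicate 1. Of the 6 regions open in Msx2-WT alone, 0 reached the lowest level of Msx2-KO replicate 1, and 2, at the last exon of Lifr and intron 14 of Stat3, reached that of Msx2-KO replicate 2. These counts take the level to be equal in the libraries. When the Msx2-WT level was multiplied by the median ratio of all promoters, a comparison chosen after the values were seen, 3 of the 6 shared regions and 4 of the 6 in Msx2-WT alone reached the lowest level of Msx2-KO replicate 1, and 6 of those 6 that of Msx2-KO replicate 2. The regions at 5.18 times background in Msx2-WT in Osmr intron 1, in Lifr and in Stat5b intron 12 stood at 19.0, 15.2 and 11.4 in Msx2-KO replicate 2. Whether depth accounts for the missing peaks was not tested. The 7 peaks of Msx2-KO replicate 2 alone held 6 to 8 tags, or 7.59 to 10.1 times background, all below the lowest level of Msx2-KO replicate 1.

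The motifs were searched on both strands in the 300 bases around each summit, as letters without mismatches. A match to TTCNNNGAA was found in 2 of 22 peaks in Msx2-WT and in 1 of 12 and 3 of 24 in the Msx2-KO replicates, and in 7.82%, 8.97% and 8.86% of all peaks of the same libraries. TGANTCA was found in 1, 0 and 3 of these peaks and in 16.0%, 12.1% and 14.9% of all peaks. The MSX motif TAATTG was found in 1, 0 and 2 and in 7.51%, 9.62% and 11.1% of all. Of the 11 promoter regions only that of Socs3 held a STAT match, and none held TGANTCA or TAATTG. Among the 300-base RefSeq promoters, 8.30% of all 32851 held TTCNNNGAA, 7.81% TGANTCA and 8.00% TAATTG, and all 10 genes were matched in that table with 13 entries, of which 1 held the STAT and 1 the AP-1 motif. Over the 3 libraries the Jak2 promoter summits lay in sequence of 83.7% G+C, those of Lifr in 81.3% to 82.3% and those of Osmr in 47.0% to 65.7%.

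Beyond these genes, the promoters of 37 others in the pathway were read in the same way. Open promoters numbered 23 in Msx2-WT, with 19 and 27 in the Msx2-KO replicates, where 47.0%, 37.8% and 53.5% of all protein-coding genes had one. In all 3 libraries 15 were open, beside 35.1% of all genes, and 8 were open in none. Among 8 ligand genes, 2, 2 and 3 were open, and the promoter of Osm, which encodes oncostatin M itself, was open in no library. Of 13 receptor genes 8, 7 and 9 were open, of the 4 other STAT genes 3, 2 and 3, and of 11 inhibitor genes 9, 7 and 11, while the kinase gene Tyk2 was open in all 3.

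In 4 of the 37 genes the Msx2-KO replicates shared a promoter state that Msx2-WT did not have. Lif, a ligand of LIFR, was open in Msx2-WT alone, with 12 tags or 6.90 times background, below the lowest level past the threshold in either Msx2-KO library. It was listed in neither of them. With the Msx2-WT level scaled by the median of all promoters, 5.75 and 3.31 would reach the lowest levels of replicates 1 and 2, and Lif stood above both. Il31ra, which pairs with OSMR to bind interleukin-31, was not listed in Msx2-WT and held 12 and 22 tags in the Msx2-KO libraries, or 25.2 and 27.8 times background. Il11, another gp130 ligand, held 7 tags below the threshold in Msx2-WT and 5 and 12 in the Msx2-KO libraries, and the inhibitor Socs2 held 8 below it and then 8 and 11. The share of 3 in 37 for promoters open in the Msx2-KO libraries only stands beside 2.31% of all genes. That of 1 in 37 for promoters open in Msx2-WT alone stands beside 2.11%.

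**Figure D4:**
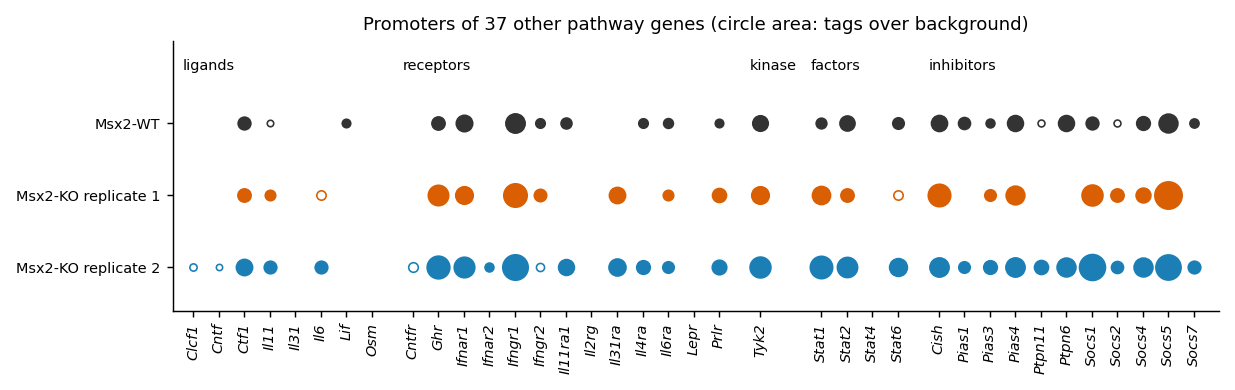
Promoters of 37 other genes of the pathway, grouped as ligands, receptors, kinase, factors and inhibitors, in the 3 libraries, with circle area in proportion to tags over background, filled circles past the threshold and open circles listed below it. Il31ra has circles in both Msx2-KO libraries and none in Msx2-WT, and Lif has one in Msx2-WT alone.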

How the data were processed

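ATAC-seq peak lists of 1 Msx2-WT and 2 Msx2-KO libraries were analysed, grouped by the sample titles. Per the methods of the study, the authors used Trimmomatic for trimming and BWA-MEM for alignment (GRCm38), left out mitochondrial reads and called peaks in each library with MACS2, without a shifting model, with reads extended to 200 bases and duplicates kept. The submitters' processing notes also name Partek. The MACS2 version is not given in the sources used here. As deposited, the peak lists give a fold enrichment at the summit over the local background with 1 added to each, and the −log10 p and −log10 q computed by the authors' peak caller. The deposited score, a rounded-down 10-fold of −log10 p, entered no result. The methods give a q limit of 0.01, whereas the lists hold every peak with p under 0.01, so peaks were kept at −log10 q above 2.0. The depth is known only through the background. Whole tag numbers at each summit were solved from fold and −log10 p, which succeeded for 99.99% of summits in each list.

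Start sites came from the GENCODE M21 basic annotation, and peaks were placed by their summits. Intervals of tag numbers are 95% Poisson intervals, and those of ratios are exact conditional binomial intervals. Genotypes were not tested, with 1 Msx2-WT library. The 10 genes, the 37 pathway genes and the marker lists were chosen with earlier results of these data known, all 10 genes are described in full, and of the pathway list only genes whose state in both Msx2-KO libraries was unlike that in Msx2-WT are named with values, besides Osm, Tyk2 and Il2rg, which were added after their values were seen. Tag recovery and the merging of regions were tested on simulated data. Alternatives were other thresholds, lists of equal length, other windows and merging rules, the deposited fold, and leaving out a library. Scripts ran under Python 3.11.15 with scipy 1.17.1, pandas 2.3.3, numpy 2.4.6 and, for figures, matplotlib 3.10.9.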

Additional observations from a re-analysis of the deposited data

How the results depend on the processing

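At −log10 q of at least 5, 5 of the 10 promoters were open in Msx2-KO replicate 1, and the windows held 13, 6 and 15 peaks in Msx2-WT and the 2 Msx2-KO libraries. With every deposited peak kept they held 48, 27 and 46. With lists of equal length they held 14 peaks in Msx2-WT and 11 in Msx2-KO replicate 2, and with windows from 50 kb before the start 35 in Msx2-WT. Regions seen in the Msx2-KO libraries only numbered 1 at −log10 q of at least 5, 6 with every peak, 1 with equal lists and 1 with summits within 100 bases merged, and 3 to 9 when one Msx2-KO library was left out, 9 of them without replicate 1. Regions in Msx2-WT alone numbered 3, 15 and, with summits within 100 bases merged, 11, and 6 to 12 without one Msx2-KO library, 12 of them without replicate 2. The median ratio of the 8 shared promoters, 1.51 over both Msx2-KO libraries, was 0.899 by the deposited fold and 0.740 set against the median of all promoters, which turns its direction. The number with a ratio of at least 2 in both, 2, was 0 by the deposited fold and 0 against that median, and 2 to 4 without one Msx2-KO library, 4 of them without replicate 1. The cause of these shifts was not tested. The other 40 values kept their direction and stayed within 1.5 times. The number of regions whose Msx2-WT level reached the lowest level past the threshold went from 1 to 3 (shared with Msx2-KO replicate 2), and for those in Msx2-WT alone from 0 to 4 and from 2 to 6, when that level was scaled by the median of all promoters, a setting chosen after seeing the data. Depth limits what can be said of peaks below 10.5 times background in Msx2-KO replicate 1, which could not pass there. No paired analysis was possible, since there was 1 Msx2-WT library and the sample titles name no pairs.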
